A study of Mus musculus with 6 samples.

Results

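The genes described here encode the receptors for glutamate and GABA. They were taken as every row of the deposited H3K9me3 table whose gene symbol begins with Gria, Grik, Grin1, Grin2, Grin3, Grid, Grm or Gabr and has at least 1 more letter or digit after that. The rule found 2174 of 202553 regions (1.07%), assigned to 45 of 16587 gene symbols. Of the 45, 44 encode receptor subunits or receptors and 1, Grid2ip, encodes a synaptic scaffold protein and is kept apart from the receptor classes. The rule leaves out Grin1, the obligatory NMDA receptor subunit, because its symbol ends where the rule asks for another character, and it leaves out Gabbr1 and Gabbr2, which encode the GABA-B receptor. These 3 genes are given with the other synapse genes at the end.

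H3K9me3 was measured by CUT&Tag, which cuts and tags DNA at an antibody's target, in frozen quadriceps femoris, a thigh muscle, of mice. There were 3 libraries labelled Prr14-WT (replicates 3, 4 and 8) and 3 labelled Prr14-KO (replicates 4, 5 and 7). Prr14 encodes a nuclear protein that binds heterochromatin and the nuclear lamina. The labels give the genotype without the age, sex, strain background or construction of the knockout, and they name no treatment. They do not say that each library came from a separate mouse, so p-values measure the spread between libraries. The mark does not report RNA, so neither the loss of Prr14 nor the tissue could be checked by expression. The tissue is bulk, and a change in the mark per nucleus and a change in the share of nuclei that carry it cannot be told apart.

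Glutamate and GABA are the main excitatory and inhibitory transmitters of the vertebrate brain. AMPA (Gria), kainate (Grik), NMDA (Grin) and delta (Grid) receptors are tetramers of the ionotropic glutamate receptor family, metabotropic glutamate receptors (Grm) are G-protein-coupled, and GABA-A receptors (Gabr) are pentameric chloride channels. H3K9me3 is a mark of constitutive heterochromatin, found over repeats and over some genes that are silent in a cell type. Skeletal muscle fibres receive their motor input through acetylcholine receptors.

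The 6 libraries held 4324444 to 4756133 counts, and the receptor genes took 0.930% to 0.988% of them. Levels are given as CPM (counts-per-million), relative to the counts in the tested regions of a library after TMM scaling, and as the mean ± SD of 3 libraries. The median region of the receptor genes had a mean of 15.7 counts per library, against 15 over all regions, so single regions carry large counting error.

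The promoters are shown first, because they are the part of these genes whose sequence can be set beside the mark. RefSeq promoter sequences (build GRCm38.p6) were matched by symbol for 30 of the 45 genes, with 38 start sites. The 250 bases before each start site were searched for CG, which reads the same on both strands. CG occurred in 36 of the 38 windows (94.7%) and in 93.4% of the 21262 windows of protein-coding genes. A deposited region overlapped 10 of the 38 windows (26.3%), in 9 genes, against 12% of all windows. Overlaps of only a few bases were counted too. The 8 windows printed are 5 that overlap a region and 3 that do not. They run 5′ to 3′ on the gene's strand, with each CG in capitals.
Gabra4 (chr5:71658309-71658558, minus strand): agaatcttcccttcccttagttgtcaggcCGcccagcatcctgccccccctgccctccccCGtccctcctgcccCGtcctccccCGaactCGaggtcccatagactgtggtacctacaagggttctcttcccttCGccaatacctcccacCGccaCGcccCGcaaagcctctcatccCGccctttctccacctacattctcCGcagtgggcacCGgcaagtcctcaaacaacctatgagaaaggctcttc
Gabrb1 (chr5:71657671-71657920, plus strand): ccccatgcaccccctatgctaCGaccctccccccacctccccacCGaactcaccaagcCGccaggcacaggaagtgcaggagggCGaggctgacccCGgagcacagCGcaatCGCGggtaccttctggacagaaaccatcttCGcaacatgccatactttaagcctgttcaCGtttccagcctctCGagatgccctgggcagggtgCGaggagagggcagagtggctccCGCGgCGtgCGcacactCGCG
Gabra2 (chr5:71095850-71096099, minus strand): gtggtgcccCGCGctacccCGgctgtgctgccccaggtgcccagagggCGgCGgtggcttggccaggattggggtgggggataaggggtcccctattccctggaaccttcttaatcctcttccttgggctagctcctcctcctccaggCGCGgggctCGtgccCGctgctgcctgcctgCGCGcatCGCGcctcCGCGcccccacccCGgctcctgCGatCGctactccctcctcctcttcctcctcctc
Grik2 (chr10:49788755-49789004, minus strand): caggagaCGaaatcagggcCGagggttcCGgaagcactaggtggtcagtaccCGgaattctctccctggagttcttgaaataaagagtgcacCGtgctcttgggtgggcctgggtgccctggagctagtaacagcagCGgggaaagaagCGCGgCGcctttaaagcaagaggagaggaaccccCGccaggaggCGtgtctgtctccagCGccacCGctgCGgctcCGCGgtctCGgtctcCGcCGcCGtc
Grin3b (chr10:79970474-79970723, plus strand): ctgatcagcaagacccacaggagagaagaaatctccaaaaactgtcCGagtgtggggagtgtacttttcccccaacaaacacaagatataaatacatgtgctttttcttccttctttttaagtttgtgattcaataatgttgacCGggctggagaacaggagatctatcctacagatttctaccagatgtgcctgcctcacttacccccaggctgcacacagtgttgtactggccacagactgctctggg
Gabra6 (chr11:42321073-42321322, minus strand): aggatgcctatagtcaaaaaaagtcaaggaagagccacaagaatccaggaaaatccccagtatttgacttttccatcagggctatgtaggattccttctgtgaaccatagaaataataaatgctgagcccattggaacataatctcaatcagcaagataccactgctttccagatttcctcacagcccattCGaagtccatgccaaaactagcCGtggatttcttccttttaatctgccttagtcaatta
Gabrg1 (chr5:70842618-70842867, minus strand): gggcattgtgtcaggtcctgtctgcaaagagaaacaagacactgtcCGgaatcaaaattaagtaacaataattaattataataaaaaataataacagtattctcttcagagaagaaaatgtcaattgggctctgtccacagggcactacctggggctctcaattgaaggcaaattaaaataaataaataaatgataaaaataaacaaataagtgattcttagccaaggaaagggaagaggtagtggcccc
Grik3 (chr4:125490446-125490695, plus strand): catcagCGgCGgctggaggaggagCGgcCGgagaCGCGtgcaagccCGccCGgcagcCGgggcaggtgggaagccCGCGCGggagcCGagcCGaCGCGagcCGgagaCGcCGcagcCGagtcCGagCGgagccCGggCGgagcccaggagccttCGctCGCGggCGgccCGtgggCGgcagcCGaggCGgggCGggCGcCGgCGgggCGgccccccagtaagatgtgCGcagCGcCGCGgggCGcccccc
The first 2 windows belong to Gabra4 and Gabrb1, GABA-A subunit genes of the chromosome 5 cluster that are transcribed in opposite directions. A single region of 960 bp overlaps both, and it held 56, 56 and 56 counts in the wild-type libraries and 41, 47 and 68 in the knockouts. The windows of Gabra2, a GABA-A alpha subunit, and Grik2, a kainate subunit, have 18 and 20 CG, and both overlap a region. Grin3b, a glycine-binding NMDA subunit, has a region at a window with 2 CG. That region, from 79970699 to 79970961, overlaps only the last bases of the window. Gabra6, a GABA-A alpha subunit of cerebellar granule cells, has 2 CG, Gabrg1, a GABA-A gamma subunit, has 1, and neither window overlaps a region. Grik3, a kainate subunit, has the most CG of the 38 windows, 42, and no region.

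Over all 38 windows the median CG number was 14 with a region and 8 without. For all protein-coding windows these medians were 16 and 9. At 0 to 4 CG, 9.09% of the receptor windows overlapped a region, against 5.20% of all windows. At 5 to 14 CG the shares were 26.7% and 12.7%. At 15 CG or more they were 41.7% and 17.8%. In each range of CG the share was thus higher in the receptor genes, but the 3 shares rest on 11, 15 and 12 windows, and windows of 1 gene share sequence. Potassium channel genes, another family of large membrane proteins, had a region at 21.7% of 92 windows, and muscle fibre genes at 5.88% of 17. The receptor and potassium channel genes were taken from symbols with an assigned region, and the muscle fibre genes and all protein-coding genes were not. This choice by itself can raise the share of windows with a region.

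The number of regions per gene ranged from 1 to 363. Grik2 had 363 regions, the metabotropic receptor genes Grm7 and Grm8 199 and 156, and Gabrg1 99. At the other end, 17 genes had fewer than 10 regions each and 74 together. Among the AMPA subunits Gria1 led with 80 regions, and among the NMDA subunits Grin3a, a glycine-binding subunit, led with 83. Gabre, the GABA-A epsilon subunit, had 1 region, and Gabrq, the theta subunit, Grik5, a kainate subunit, and Grin3b had 2 each.

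**Figure D1:**
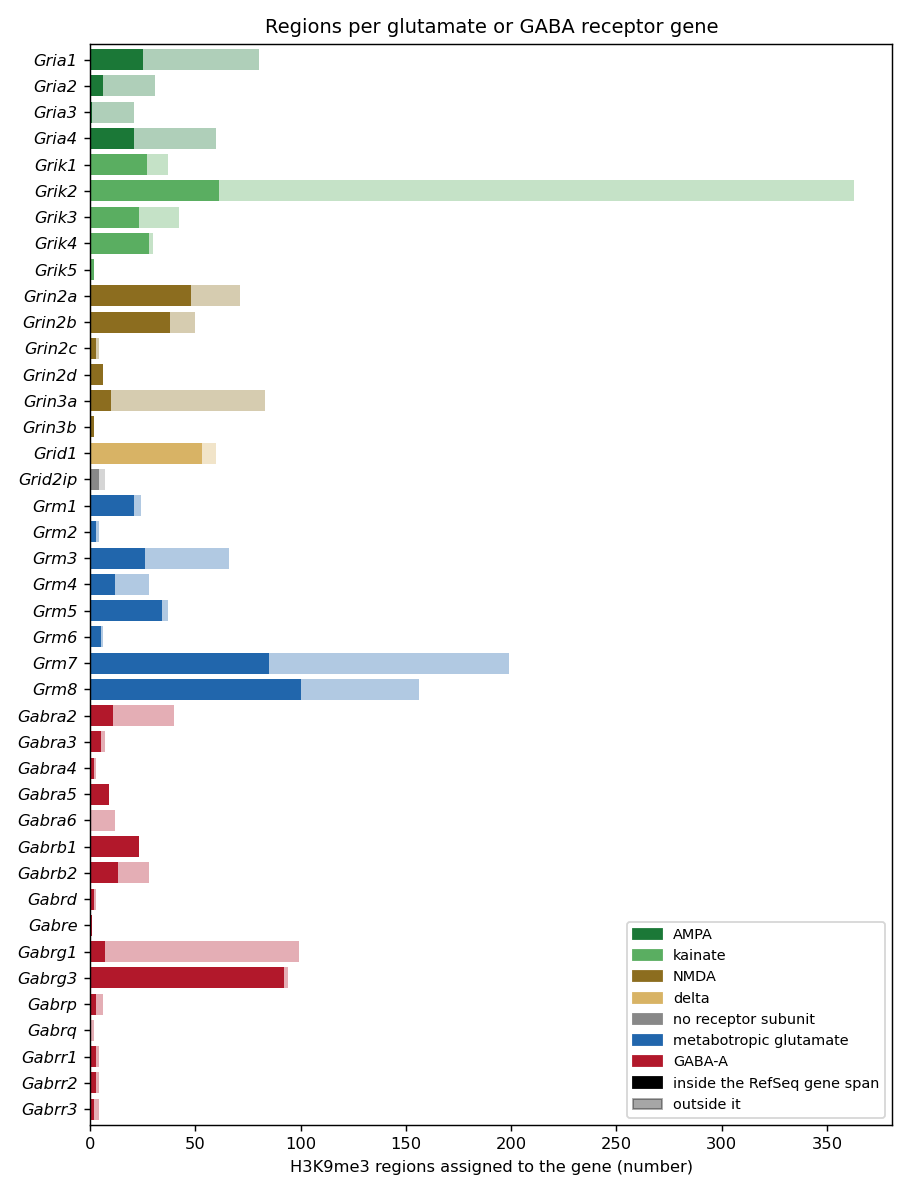
Number of deposited H3K9me3 regions assigned to each of the 41 genes drawn, coloured by receptor class, with the part inside the RefSeq span of the gene in full colour and the part outside it pale. Grik2 has 363 regions, of which 61 lie inside the gene, whereas Gabrg3 has 92 of its 94 inside.

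Much of this signal lay outside the genes, because the authors assigned each region to a gene whether or not it was inside it. Only 978 regions (45.0%) had their midpoint inside the RefSeq span of their own gene. Grik2 had 301 intergenic regions, the farthest 1798006 bp from its start site, over a stretch of 2.71 Mb. Gabrg1 had 90.9% of its regions in intergenic DNA, whereas Gabrg3, also a gamma subunit, had 2.13%. Intergenic regions made up 71.4% of the AMPA class, 70.0% of the kainate class, 55.0% of the GABA-A class, 49.1% of the NMDA class, 43.7% of the metabotropic class and 32.3% of the delta class. Over the whole table the share was 68.1%.

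Introns held 40.6% of the receptor regions, against 22.6% of all regions. Promoters within 1 kb held 52 regions (2.39%), against 3.80% of all regions. By gene, 36 of the 45 had such a region, against 6482 of all 16587 gene symbols. The receptor genes also had more regions each, with a median of 28 against 4. The 52 promoter regions were wider than promoter regions at large, with a median of 429 bp against 350 bp, and their median wild-type level was 5.65 CPM against 3.56 CPM. Per kb the medians were closer, 12.9 CPM and 10.3 CPM. The median distance to the start site was 216 kb for the receptor regions and 86.8 kb for all regions. With each gene cut into 3 equal parts from its start, 38.5% of the regions inside the genes lay in the first part, 38.0% in the middle and 23.5% in the last. Over all genes the split was 41.3%, 34.7% and 24.0%.

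The receptor genes are long, so their regions were also counted per Mb of RefSeq span, whichever symbol the authors had assigned. The 25 receptor genes of 100 kb or more had a median of 91.5 regions per Mb, and none of them lacked a region. The 2403 other protein-coding genes of that length had a median of 54.4, with quartiles of 25.8 and 86.5. The 20 shorter receptor genes had a median of 92.5 regions per Mb and 10% of them held no region, whereas 51.2% of the 19435 other short genes held none. Potassium channel genes had a median of 98.4 regions per Mb. Like the receptor genes they were taken from symbols with an assigned region, which the other protein-coding genes need not have. Among genes taken this way, a high density was not particular to transmitter receptors. Gene spans are not replicates, and no test was made of these densities.

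**Figure D2:**
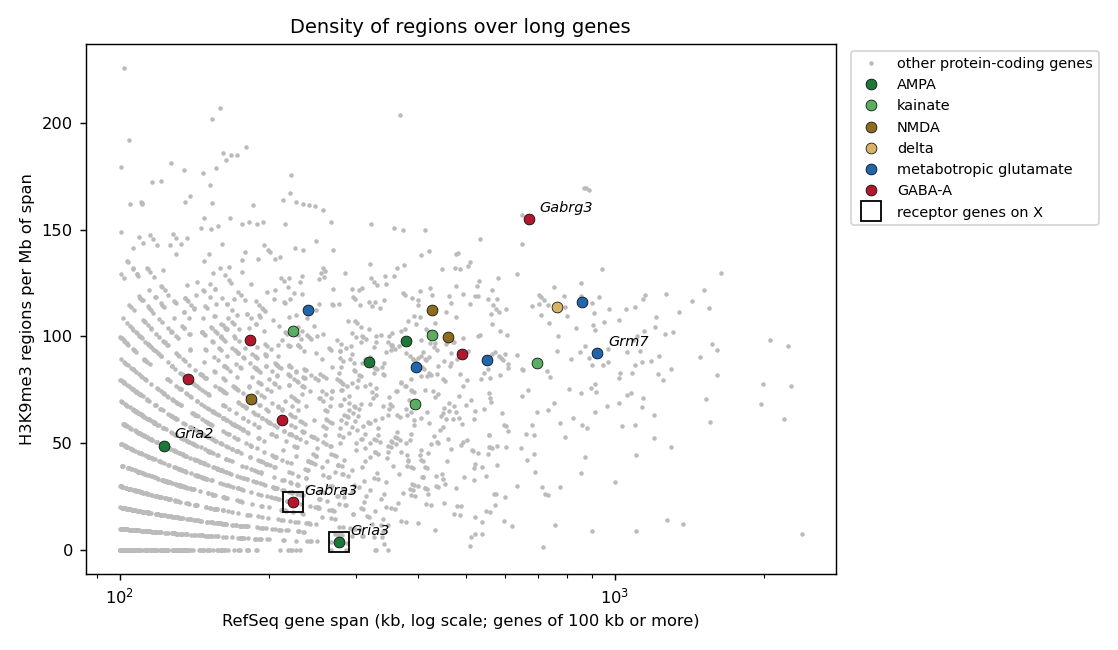
Regions per Mb of RefSeq span against span length for protein-coding genes of 100 kb or more, with receptor genes coloured by class and the 2 on chromosome X boxed. The autosomal receptor genes drawn lie between 48.9 and 155 regions per Mb, and the X-linked Gria3 and Gabra3 lie at 3.60 and 22.3.

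Density did not simply follow the number of regions. The highest wild-type level per Mb of span was 3678 CPM in Grm6, a metabotropic receptor of retinal ON bipolar cells, whose span of 15.8 kb holds 5 regions. Grin3b followed with 1796 CPM per Mb and Grm2, a presynaptic metabotropic receptor, with 1505. Among genes over 100 kb, Gabrg3 was highest, with 104 regions and 835 CPM per Mb. Grik2, the richest in regions, had 385 CPM per Mb. Around the 15 genes with 50 or more regions, the stretch out to the farthest assigned region was denser than the gene itself in 12. For Grik2 the values were 150 regions per Mb outside and 87.6 inside. Grin2a and Gabrg3 were among the exceptions, with 105 and 131 regions per Mb outside and 112 and 155 inside. The outer limit of such a stretch is by construction a region, which raises the density of short ones.

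Gabra6 and Gabrq had no region inside their spans. The 12 regions assigned to Gabra6 were all intergenic, and they summed to 248, 241 and 247 counts in the wild-type libraries and 264, 209 and 206 in the knockouts. Gabrq had 35, 9 and 20 counts against 13, 20 and 15, and the groups of both genes overlapped.

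Of the 4 X-linked members, Gria3 and Gabra3 are long genes with few regions. Gria3, an AMPA subunit with a span of 278 kb, held 1 region inside the gene and 20 in intergenic DNA. That region had 2, 7 and 10 counts in the wild-type libraries and 12, 2 and 2 in the knockouts. Gabra3, a GABA-A alpha subunit, held 5 regions in 224 kb. The 23 autosomal receptor genes of 100 kb or more had a median of 92.2 regions per Mb. The low values were shared by chromosome X, whose 114 protein-coding genes of that length had a median of 3.26, with 54 holding no region. The median of 2312 autosomal genes was 58.4. Chromosome X held 1.13% to 1.28% of the counts in the 6 libraries, and its part in the low density of these genes was not tested. Gabre had 27, 26 and 25 counts in wild type and 36, 20 and 26 in knockout, all in 1 exonic region.

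GABA-A subunit genes lie in clusters, and the mark was followed along those on chromosomes 5 and X. The chromosome 5 cluster of Gabrg1, Gabra2, Gabra4 and Gabrb1 held 147 regions in 1398 kb (105 per Mb) and 620 ± 37.4 CPM in wild type. The X cluster of Gabre, Gabra3 and Gabrq held 10 regions in 587 kb (17.0 per Mb) and 32.1 ± 4.45 CPM. In the knockouts the chromosome 5 cluster held 611 ± 26.9 CPM, a log2 difference of -0.02, and the X cluster 38.2 ± 3.85 CPM, a log2 difference of 0.25. The libraries of the groups overlapped in both clusters. Gabrr1 and Gabrr2, the rho subunits that are neighbours on chromosome 4, had 33.7 ± 1.56 CPM in wild type and 30.5 ± 3.67 CPM in knockout over 9 regions, and these groups also overlapped.

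**Figure D3:**
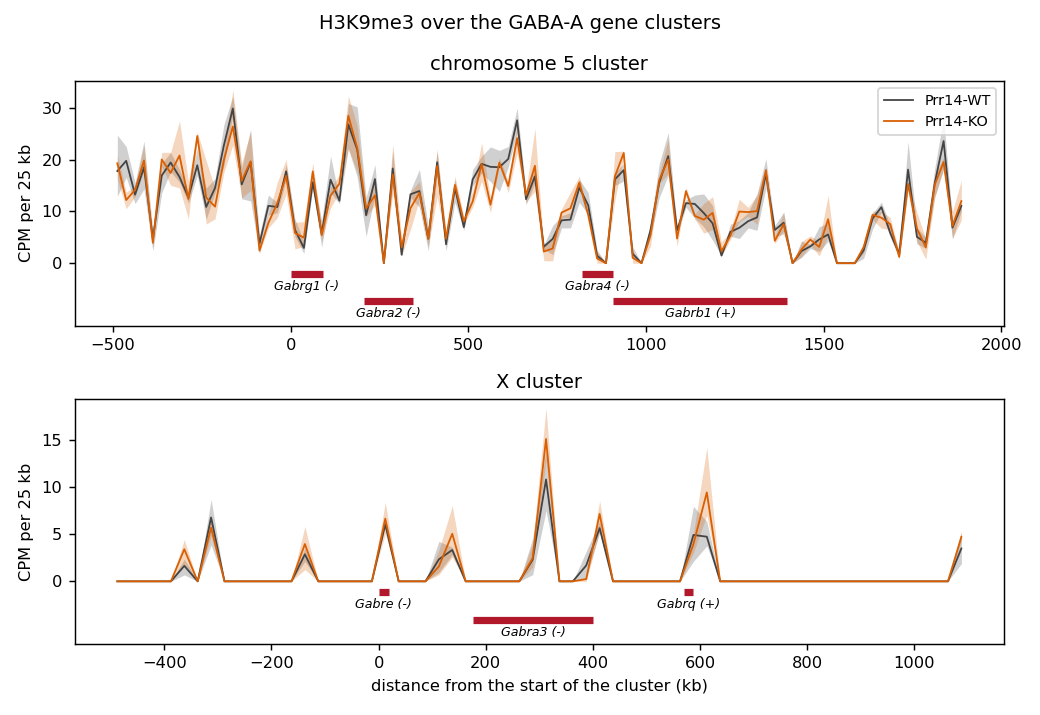
H3K9me3 level in bins of 25 kb along the GABA-A gene clusters of chromosomes 5 and X and 500 kb on either side, with lines for the mean and bands for the lowest and highest of the 3 libraries of each genotype, and gene spans with their strand drawn as bars. The library ranges of the genotypes overlap in most bins on chromosome 5. Most bins on X are empty in every library, so the genotypes cannot be compared there, and the X cluster holds 10 regions.

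The comparison of knockout with wild type asks whether the mark over these genes changed without Prr14. It was made for single regions, for sums over all regions of a gene symbol and for sums inside the gene span, with edgeR's quasi-likelihood test and Benjamini-Hochberg adjustment over all features of the table at each level. Gene sums were scaled by TMM over the gene sums, whereas all CPM values use the scaling over regions. The log2 difference of a gene sum can therefore depart slightly from that of its CPM values. No receptor gene passed an adjusted p of 0.05 at any level. Among regions 0 of 1715 tested passed, where 0.0130% of all tested regions did. Among gene sums 0 of 45 passed, where 0.0393% of all did. Among span sums 0 of 42 passed, where 0.0291% of all did. The smallest adjusted p by this test was 0.998 among regions, 1.00 among gene sums and 0.999 among span sums. In the authors' deposited table, 0 of the 1822 receptor regions that have an adjusted p were under 0.05, and 13 regions of the whole table were.

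Unadjusted p-values under 0.05 were found for 52 of the 1715 regions (3.03%), where 3.84% of all tested regions had one. Of these, 28 were higher in the knockouts, where 2.02% of all tested regions were, and 24 were lower, where 1.81% of all were. All 3 knockouts lay above all 3 wild-type libraries in 68 receptor regions (3.97%), where 4.68% of all tested regions did. They lay below in 99 (5.77%), where 4.93% of all did. By class, the share with an unadjusted p under 0.05 was 5.53% of delta, 3.91% of NMDA, 3.80% of kainate, 3.31% of AMPA, 2.49% of GABA-A and 0.781% of metabotropic regions. These shares lie on either side of that over all regions.

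Summed over each class, the genotypes overlapped in every class. AMPA genes held 906, 887 and 899 CPM in the wild-type libraries and 946, 888 and 894 in the knockouts, a log2 difference of the means of 0.02. Kainate genes held 2693, 2672 and 2483 CPM against 2704, 2505 and 2460, a difference of -0.03. NMDA genes held 1014, 1011 and 1030 CPM against 982, 1045 and 1058, a difference of 0.01. In these 3 classes the knockout replicate 4 was the highest AMPA and kainate library and the lowest NMDA library. Delta genes held 1080, 1002 and 1067 CPM against 1065, 1091 and 1122, a difference of 0.06. Metabotropic genes held 2303, 2252 and 2302 CPM against 2275, 2191 and 2309, a difference of -0.02. GABA-A genes held 2631, 2588 and 2506 CPM against 2618, 2413 and 2570, a difference of -0.02. In the delta class the means, 1050 ± 41.9 CPM in wild type and 1093 ± 28.6 CPM in knockout, differed by about 1 SD. In the other 5 classes the means differed by less than the larger SD.

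**Figure D4:**
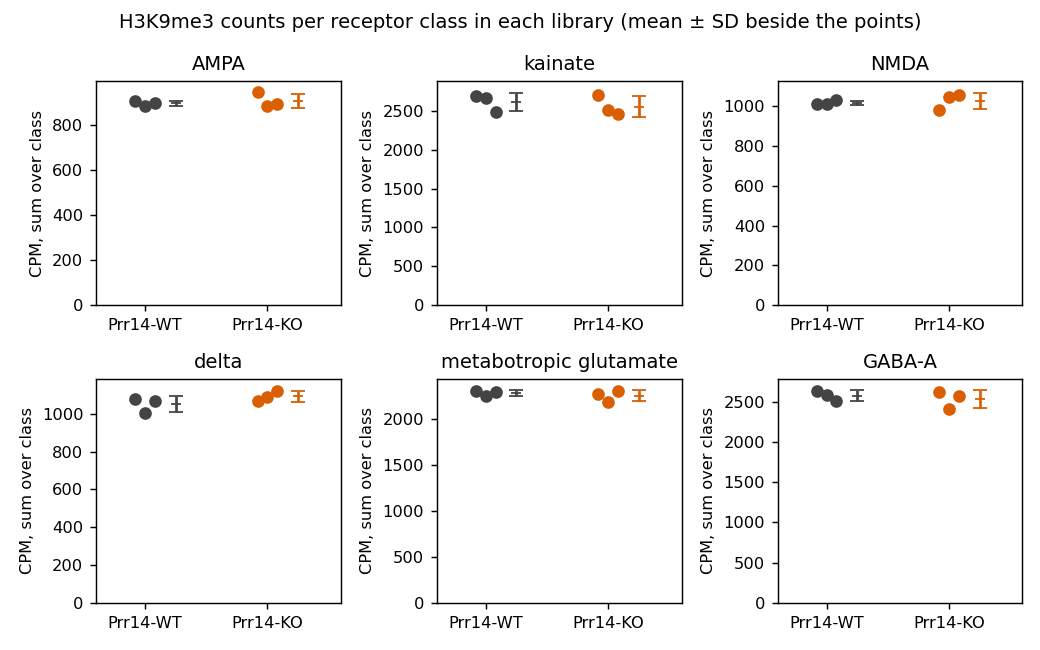
Sum of H3K9me3 CPM over all regions of each receptor class, with a point for each library in the order wild-type replicates 3, 4 and 8 and knockout replicates 4, 5 and 7, and the mean ± SD beside them. The points of the genotypes overlap in all 6 classes, and the differences of the means run from -0.03 to 0.06 on the log2 scale.

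Of the 45 gene sums, including those not named here, 15 were higher and 30 lower in the knockouts, with a median log2 difference of -0.04. Over all 15265 gene sums tested, 50.3% were higher and the median was 0.00. With library totals as the scaling, 17 of the 45 were higher and their median was -0.03, where 53.3% of all gene sums were higher. The median over the 45 genes lay nearer 0, at -0.01, without Prr14-WT replicate 3 or Prr14-KO replicate 5, and farther from it, at -0.08, without Prr14-KO replicate 4 and at -0.07 without Prr14-WT replicate 8. Without Prr14-KO replicate 7 it was -0.03. Only Grik4, a high-affinity kainate subunit, had an unadjusted p under 0.05, where 3.58% of all gene sums did. Its 30 regions held 695, 709 and 665 counts in wild type and 646, 568 and 534 in knockout, or 160 ± 5.65 and 143 ± 8.29 CPM. All 3 knockouts lay below all 3 wild-type libraries, as in 3.57% of all gene sums. The log2 difference was -0.19 (95% interval -0.37 to -0.00, unadjusted p = 0.0495 and adjusted p = 1.00 by edgeR).

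The next lowest p among the genes that were lower belonged to Gabra2, with 744, 754 and 661 counts against 642, 552 and 666 and a log2 difference of -0.16 (95% interval -0.34 to 0.03). Gabrp, the GABA-A pi subunit, held 112, 112 and 125 counts against 65, 82 and 127, with a difference of -0.29 (95% interval -0.70 to 0.12). Grm6 held 265, 327 and 293 counts against 296, 263 and 208, with a difference of -0.15 (95% interval -0.41 to 0.11). In each of these 3 genes at least 1 knockout library was not below the wild-type values, and the groups overlapped. The difference of Gabrp was -0.08 without Prr14-KO replicate 4 and -0.61 without Prr14-KO replicate 7. That of Grm6 was -0.03 without Prr14-KO replicate 7, -0.05 without Prr14-WT replicate 4, -0.23 without Prr14-WT replicate 3 and -0.25 without Prr14-KO replicate 4. That of Gabra2 was -0.09 without Prr14-KO replicate 5.

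Among genes that were higher, Grin2d, an NMDA subunit that is prominent in early development, held 62, 60 and 101 counts in wild type and 60, 90 and 117 in knockout, with a log2 difference of 0.32 (95% interval -0.14 to 0.79). Gabrr3, a rho subunit, held 82, 72 and 61 counts against 85, 78 and 92, or 18.6, 16.9 and 14.3 CPM against 19.8, 19.7 and 23.1. Its difference was 0.31 (95% interval -0.14 to 0.76), and it was the 1 gene whose knockouts all lay above all wild-type libraries, as in 4.78% of all gene sums. Gabra3 held 95, 94 and 75 counts against 111, 87 and 108, with a difference of 0.27 (95% interval -0.14 to 0.68). Gria4, an AMPA subunit, held 1638, 1683 and 1591 counts against 1863, 1514 and 1592, with a difference of 0.07 (95% interval -0.07 to 0.22). Its direction turned to -0.01 without Prr14-KO replicate 4 and to -0.07 with promoter and genic regions alone. The difference of Grin2d was 0.07 without Prr14-KO replicate 7, 0.55 without Prr14-KO replicate 4 and 0.59 without Prr14-WT replicate 8. It was 0.20 without either Prr14-WT replicate 3 or Prr14-WT replicate 4. Without Prr14-WT replicate 8 the difference of Gabra3 was 0.16 and that of Gabrr3 0.19. No member passed the test in either direction.

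The genes with many regions gave the narrowest intervals. In the 15 genes with 50 or more regions the log2 differences ran from -0.06 to 0.07, and every 95% interval lay between -0.21 and 0.22. Grik2 held 9247, 8864 and 8044 counts in wild type and 9215, 7636 and 7610 in knockout, or 2026 ± 117 and 1994 ± 133 CPM. Its log2 difference by edgeR, under the scaling over gene sums, was -0.04 (95% interval -0.17 to 0.09). Grm7 held 3474, 3225 and 3464 counts against 3225, 2889 and 3365, a difference of -0.04 (95% interval -0.18 to 0.10). After scaling, the knockouts of both genes overlapped the wild-type libraries.

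Among the genes with the most regions in other classes, Gabrg1 held 2124, 2052 and 1853 counts in wild type and 2250, 1731 and 1748 in knockout, a log2 difference of -0.02 (95% interval -0.17 to 0.14). Gria1 held 1449, 1284 and 1319 counts against 1331, 1209 and 1187, a difference of -0.06 (95% interval -0.21 to 0.09). Grin3a held 1688, 1568 and 1597 counts against 1563, 1580 and 1480, a difference of -0.01 (95% interval -0.16 to 0.14). Under the scaling over regions Grin3a held 376 ± 7.28 CPM in wild type and 378 ± 18.1 CPM in knockout, so the sign depends on the scaling. In the 17 genes with fewer than 10 regions the differences ran from -0.35 to 0.32, and the intervals reached from -1.42 to 0.96. For 32 of the 45 genes the whole interval lay within 0.5 of 0 on the log2 scale, so differences beyond that size were outside the intervals of these genes.

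**Figure D5:**
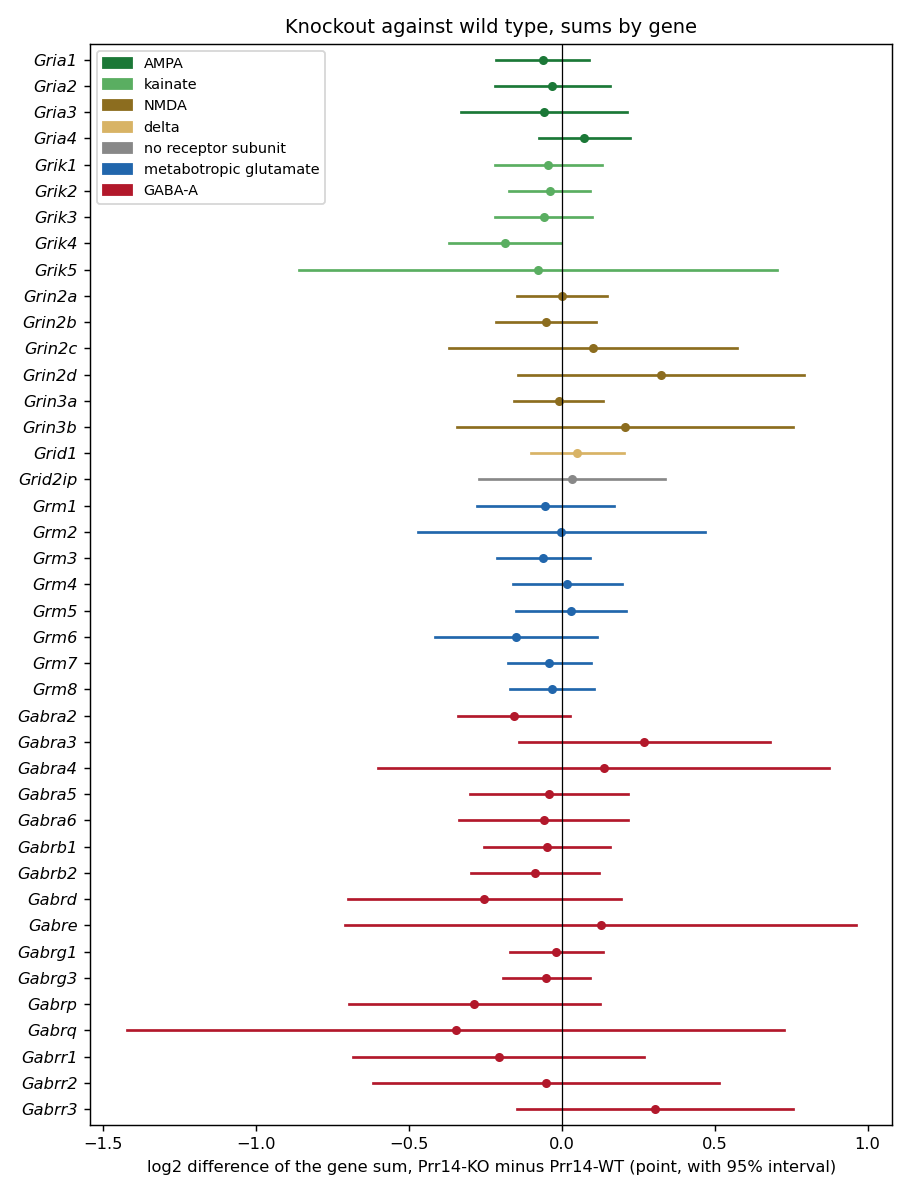
Log2 difference of the summed H3K9me3 counts of each gene, knockout minus wild type, as a point with its 95% interval from edgeR, ordered and coloured by receptor class. The interval of Grik4 ends just below 0 and those of the other 40 genes drawn include 0, and the widest intervals belong to genes with few regions.

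Sums inside gene spans were tested for 42 of the 45 genes, and Gabra6, Gabrq and Gria3 had no or too few counts there. Grik4 again had the 1 unadjusted p under 0.05 among the 42 receptor spans tested, where 4.01% of all spans had one, with a log2 difference of -0.18 (unadjusted p = 0.0435 by edgeR). No receptor span had one without robust weighting, or without Prr14-WT replicate 3 or 4 or Prr14-KO replicate 5 or 7. Without Prr14-KO replicate 4 the 1 such span was Gabrr3, with a log2 difference of 1.03, and not Grik4. The sum inside the span of Gabrg1 differed by 0.18 (95% interval -0.19 to 0.55), that of Grin3a by 0.22 (95% interval -0.06 to 0.49) and that of Grik2 by -0.03. The intervals of these 3 spans include 0.

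The single region with the smallest p was an intergenic one assigned to Grin3a on chromosome 4, from 50121982 to 50122280 (GRCm38). It held 16, 21 and 18 counts in the wild-type libraries and 2, 4 and 2 in the knockouts. The knockouts all lay below the wild-type libraries, with a log2 difference of -2.65 (95% interval -4.14 to -1.15, unadjusted p = 0.000517 and adjusted p = 0.998 by edgeR). In the authors' deposited table the same region has a log2 fold change of -2.76, a p-value of 0.000152 and an adjusted p of 1.00. The authors give its distance to the start of Grin3a as -276582 bp, and the 83 regions of Grin3a together differed by -0.01.

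Other regions that were lower had smaller differences, and all of the following gave an adjusted p of 0.998 by edgeR. An intergenic region of Gabrg1 held 42, 55 and 62 counts in wild type and 29, 34 and 25 in knockout, a log2 difference of -0.78. An intronic region of Gabrg3 held 38, 21 and 26 counts against 18, 13 and 6, a difference of -1.12. The region at the promoter of Grid2ip held 36, 24 and 48 counts against 21, 19 and 14, a difference of -0.92. An intergenic region of Grik2 held 24, 30 and 31 counts against 11, 19 and 8, a difference of -1.08. In these 4 regions every knockout count was below every wild-type count.

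Among regions that were higher, an intronic one of Grm8 held 42, 32 and 33 counts in wild type and 49, 54 and 68 in knockout, a log2 difference of 0.76. An intronic region of Grid1, a delta receptor gene, held 6, 1 and 10 counts against 9, 28 and 17, a difference of 1.74. Intergenic regions of Grik2 held 9, 0 and 4 against 12, 18 and 19, a difference of 1.98, and 11, 21 and 12 against 27, 25 and 34, a difference of 1.04. An intergenic region of Gria4 held 11, 4 and 8 counts against 22, 22 and 18, a difference of 1.49. The Grid1 region overlapped between genotypes and the other 4 did not, and each had an adjusted p of 0.998 by edgeR. Grik2 supplied regions in both directions.

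The promoter region of Grin3a held 83, 73 and 70 counts in wild type and 77, 88 and 83 in knockout, and that of Gabra5, a GABA-A alpha subunit, 70, 64 and 58 against 69, 64 and 62. A region about 1 kb inside Gabrb1, also annotated as promoter, held 56, 72 and 70 against 77, 69 and 75. The promoter regions of Gabra2 held 58, 54 and 60 against 28, 46 and 55, of Gria4 42, 52 and 55 against 41, 45 and 44, and of Grm7 42, 47 and 64 against 37, 26 and 57. The log2 differences of the promoter regions named in this paragraph ran from -0.33 for Gabra2 to 0.23 for Gabrb1. Every 95% interval included 0. After scaling, all 3 knockouts lay above all 3 wild-type libraries at the region inside Gabrb1, and the groups overlapped at the others.

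In exons, 2 regions of Grm6 held 64, 103 and 73 counts against 86, 91 and 58, and 83, 99 and 69 against 70, 70 and 52. The latter had 40.0 CPM per kb in wild type, against a median of 11.3 over the regions of the family. A region in the 3′ UTR of Grm4, a presynaptic metabotropic receptor, held 33, 66 and 54 counts against 40, 49 and 40. The groups overlapped at each of these 3.

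An intronic region of Grik1, a kainate subunit, was among those with the most counts, with 181, 101 and 157 in wild type and 141, 159 and 116 in knockout, and an intronic region of Gabrg3 held 152, 170 and 134 against 117, 119 and 127. An intergenic region of Grik2 held 129, 90 and 75 counts against 147, 107 and 103, and one of Grid2ip 98, 108 and 84 against 162, 99 and 78. After scaling, the genotypes overlapped at each of these 4. The Gabrg3 region had a log2 difference of -0.25 (95% interval -0.62 to 0.11).

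Other genes of these synapses were counted the same way. The list of 56 genes covers transmitter synthesis, transport, scaffolds, auxiliary subunits and further receptors, namely Grin1 and the GABA-B and glycine receptor genes. Of these, 53 gene sums were tested and 0 passed, with a median log2 difference of -0.03. Grin1 held 56.6 ± 7.36 CPM in wild type and 52.0 ± 1.5 CPM in knockout over 7 regions, a log2 difference of -0.14 (95% interval -0.42 to 0.14). Gabbr2 held 170 ± 14 and 172 ± 3.72 CPM over 34 regions, and Gabbr1 4.74 ± 2.41 and 4.88 ± 2.37 CPM over 2. The 56 genes had a median of 75.5 regions per Mb of span, against 91.5 for the receptor genes. Their list keeps genes with no region, which the rule for the receptor genes does not. None of the 86 potassium channel gene sums tested passed either.

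The nicotinic acetylcholine receptor genes, which include those of the muscle receptor, are shorter. Of the 5 subunit genes of muscle, Chrnb1, Chrnd and Chrne had 0 regions, Chrng had 2, and Chrna1, which encodes the alpha subunit, had 3, of which 1 was inside the gene. Across 16 nicotinic receptor genes there were 70 regions, and the neuronal subunit gene Chrna7 had 31 of them. Per Mb of span the 16 genes had a median of 75.9 regions, against 91.5 for the glutamate and GABA receptor genes, and pooled over all spans 96.6 against 94.5. Of 12 nicotinic gene sums tested 0 passed. The 20 muscle fibre genes held 63 regions, with medians of 50.8 regions and 72.8 wild-type CPM per Mb of span. The receptor genes had medians of 91.5 regions and 392 CPM per Mb. Muscle fibre spans were shorter, with a median of 17.0 kb against 183 kb, and 7 held no region. Pooled over spans the values were 67.3 regions and 295 CPM per Mb, against 94.5 and 430 for the receptor genes. Over all protein-coding genes the medians were 20.5 regions and 44.1 CPM per Mb. The nicotinic and muscle fibre lists keep genes with no region, unlike the receptor genes. Of 10 muscle fibre gene sums tested 0 passed.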

How the data were processed

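H3K9me3 was profiled by CUT&Tag in 3 Prr14-WT and 3 Prr14-KO libraries of quadriceps femoris, grouped by the genotype labels. Trimmomatic and BWA, MACS2, bedtools and deepTools, DESeq2 1.6.3 and the build GRCm38 are listed in the submitters' processing notes, and their settings, and whether regions were called on pooled libraries, are not given in the sources used here. Per the file headers, the authors deposited raw counts per region and library, a normalised signal, which equals the count divided by a factor per library, and their log2 fold changes, p-values and adjusted p-values. The deposited score has no stated meaning, and it and the normalised signal were not used. Symbols and annotation are the authors'. Positions are as the table gives them.

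filterByExpr with a minimum count of 10 and a minimum total of 15 left 153789 regions, and counts were tested with edgeR 4.0.16 (R 4.3.3; TMM, robust quasi-likelihood) for regions, for gene sums by symbol and for sums of regions with their midpoint in a RefSeq span (GRCm38.p6). The scaling of regions, spans and CPM came from the regions, and that of the gene sums from the gene sums. Each fit used all 6 libraries, and p-values were adjusted over all features at that level with a threshold of 0.05. Class sums got no test. The scripts were tested on simulated data, with changes placed in features drawn from all those tested. Of simulated 2-fold changes, 3% were recovered among regions, 62.5% among gene sums and 38% among span sums. A 2-fold change in a single region would thus rarely pass. A uniform change of the mark would be lost in the scaling, since the labels mention no spike-in.

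Members and lists were chosen with earlier results of these data known. Values by library are given for the gene with the most regions in each class, the 4 gene sums and 6 regions with the smallest p in each direction, the 12 promoter, exon or UTR regions and the 6 regions of any kind with the most counts, members with no region in their span and X-linked members; any further gene was picked with its values in view. Named values of 4 members and 2 gene clusters are not reported here, and figures leave them out; counts over the family and its classes include them. Alternatives were RLE and library-total scaling, other count filters, DESeq2 1.42.0, limma 3.58.1 (voom), no robust weighting, an adjusted p of 0.10, leaving out each library, genic regions alone, and spans with 10 kb on either side.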

Additional observations from a re-analysis of the deposited data

How the results depend on the processing

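The counts of receptor regions, gene sums and span sums that passed the test were 0 under every alternative run. The smallest adjusted p over the alternatives was 0.858 for a region (a Grik2 region), 0.429 for a gene sum (Grik4, log2 difference -0.25) and 0.562 for a span sum (Gabrr3, log2 difference 1.03), each without Prr14-KO replicate 4. The unadjusted call of Grik4 rests on the margin: 0 receptor gene sums had an unadjusted p under 0.05 with RLE factors, library totals, a mean of at least 20 counts, no robust weighting, DESeq2 or limma-voom, or without Prr14-WT replicate 3 or 4 or Prr14-KO replicate 5. Over all genes, without Prr14-KO replicate 4 the calls went from 6 to 18 gene sums and from 5 to 16 span sums. With 10 kb on either side, 10 of 34639 spans tested were called, against 5 of 17191 without it. The AMPA class sum moved to a log2 difference of -0.0366 with promoter and genic regions alone and to -0.0311 inside RefSeq spans, the opposite sign to the main value of 0.02. Under the same settings the differences of the kainate (-0.0874 and -0.0957), NMDA (0.048 and 0.0559) and metabotropic (-0.0437 and -0.0454) sums were more than 2 times as large as over all regions, and kept their sign. The GABA-A value was -0.0118 inside spans. Leaving out 1 library at a time gave -0.0162 to 0.0361 for AMPA, -0.0816 to -0.00198 for kainate, -0.00217 to 0.0408 for NMDA, 0.0266 to 0.079 for delta, -0.0295 to 0.00377 for metabotropic and -0.0536 to 0.0105 for GABA-A genes. No paired analysis was possible because the genotypes share 1 replicate number. Regions with few counts limit what a single region can show.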
